A study of Mus musculus with 42 samples.

Results

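Class I olfactory receptors are the receptor genes of the mouse that sit in 1 long cluster on chromosome 7. They were taken here as the genes named Olfr in GENCODE release M21 that lie between 102 Mb and 106 Mb on chromosome 7 of GRCm38, a choice by position that uses no measured value. The count table held 139 of them among its 1170 olfactory receptors and 44674 genes. A further 17 receptors annotated in the window are not analysed here. The tissue was the main olfactory epithelium. It came from adult C57BL/6NCrl males that spent 1 h with no odour or with that of normal chow (NCD), a bacon-flavoured chow (BFD) or a lard-based high-fat diet (HFD). Each of the 21 pools combined 4 epithelia (5 pools with no odour, 6 with NCD, 5 with BFD, 5 with HFD) and was split into 1 pulldown and 1 input library. pS6-ribotrap, the method behind the pulldown, captures ribosomes that carry phosphorylated S6 protein, a mark that rises in recently active neurons, together with the mRNA on them.

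Each mature olfactory sensory neuron expresses a single receptor gene from 1 allele, so the mRNA of a receptor in the pulldown relative to the input reads out the ribosomes of the neurons that chose it. Class I receptors, also called fish-like receptors, are one of the main branches of the mammalian family, and the remaining mouse receptors are mostly class II and are spread over many chromosomes. Class I receptors are expressed mostly in the dorsal part of the epithelium, and many of those with a known ligand respond to carboxylic acids and other hydrophilic odorants. In a whole tissue, fewer cells of a type and less RNA per cell cannot be told apart.

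The 139 members ran from Olfr543, which starts at 102476579, to the last one, which ends at 105369355. The beta-globin genes lie inside the cluster, with 81 members before them and 58 after them, and 72 members are on the plus strand and 67 on the minus strand. The annotation calls 16 members pseudogenes. Where coding sequence was annotated, the label held for most: for 122 of 128 members the receptor with the most coding words of 12 bases in common was another member, against 3 of 952 other receptors whose nearest was a member. The 6 exceptions include Olfr571 and Olfr658, whose values are given with the ratios without odour. As shared words over all words of both genes, Olfr658 stood at 0.549 with Olfr503 and Olfr657 at 0.406 with Olfr504, both outside the cluster. For the other 4 exceptions, Olfr571 among them, the nearest receptor reached at most 0.012. Similar copies matter for counting, because 76 members had 5% or more of their 31-base words in transcripts of other genes (median 6.03%, highest 86.3%).

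Receptor counts were low. A class I sum held 1365 to 4504 counts in a pulldown library and 2409 to 3735 in an input library, out of 25392651 to 36738192 and 24839380 to 36781440 counts. Of the 139 members, 98 passed the filter on low counts, none of them an annotated pseudogene, and 4 had no count in any library. The 41 members that were not tested carried only 2.35% of the class I signal in the inputs. Among the other receptors, 810 of 1031 passed. The median tested member had 17.9 counts per pulldown and 20.6 per input, against 37.3 per pulldown for the median of the other tested receptors.

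Within the epithelium the cluster was unevenly used. Per kb of transcript the inputs held a median of 0.143 CPM (counts scaled to library size) for a member and 0.264 for another receptor, and the highest member, Olfr672, reached 1.82. Olfr566 (1.42 CPM per kb), Olfr613 (1.32), Olfr578 (1.13) and Olfr598 (0.950) followed. The 5 members with the largest input CPM held 23.3% of the class I signal, and the 20 with the largest held 51.9%.

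The summed pulldown signal of all 139 members, tested or not, was higher with every odour than with none. Without odour the 5 pools held 65.2, 60.4, 59.2, 67.3 and 74.5 CPM. With NCD odour the 6 pools ran from 98.3 to 106.6 CPM (median 101.6). With BFD odour the 5 pools held 91.2, 96.5, 102.5, 100.5 and 102.8 CPM. With HFD odour they held 120.2, 118.5, 120.6, 113.7 and 110.5 CPM. No pool with an odour overlapped with the pools without one, and every HFD pool lay above every NCD and BFD pool. The means were 65.3 ± 6.09 CPM (SD, n = 5) without odour, 101.7 ± 3.02 (SD, n = 6) with NCD, 98.7 ± 4.87 (SD, n = 5) with BFD and 116.7 ± 4.41 (SD, n = 5) with HFD, which is 1.56-fold, 1.51-fold and 1.79-fold over no odour. The same sums over the other receptors rose 1.23-fold, 1.31-fold and 1.27-fold. These sums are descriptions of the members and carry no p-value.

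The input sums did not separate. They were 94.6 ± 5.32 CPM (SD, n = 5) without odour, 95.4 ± 1.36 (SD, n = 6) with NCD, 97.0 ± 6.20 (SD, n = 5) with BFD and 99.2 ± 6.07 (SD, n = 5) with HFD, and the ranges of all 4 groups overlapped. As log2 of pulldown over input, the class I sum was -0.54 ± 0.12 (SD, n = 5) without odour, 0.09 ± 0.04 (SD, n = 6) with NCD, 0.03 ± 0.08 (SD, n = 5) with BFD and 0.24 ± 0.09 (SD, n = 5) with HFD. In this ratio the HFD and NCD pools overlapped, with 0.15 the lowest under HFD and 0.16 the highest under NCD. The other receptors stood at 0.24 ± 0.06, 0.50 ± 0.06, 0.57 ± 0.17 and 0.49 ± 0.06 in the same pools. On this scale the class I sum minus that of the other receptors was -0.78 ± 0.12 (SD, n = 5) without odour, -0.41 ± 0.08 (SD, n = 6) with NCD, -0.54 ± 0.12 (SD, n = 5) with BFD and -0.26 ± 0.04 (SD, n = 5) with HFD, below 0 in every pool. For the median tested member the order was not clear under HFD. Its log2 ratio was 0.14 ± 0.16 (SD, n = 5) against 0.10 ± 0.07 for the median of the other receptors. The medians over the HFD pools were 0.05 and 0.11, the other way round. Within a pool the difference ran from -0.09 to 0.22.

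**Figure D1:**
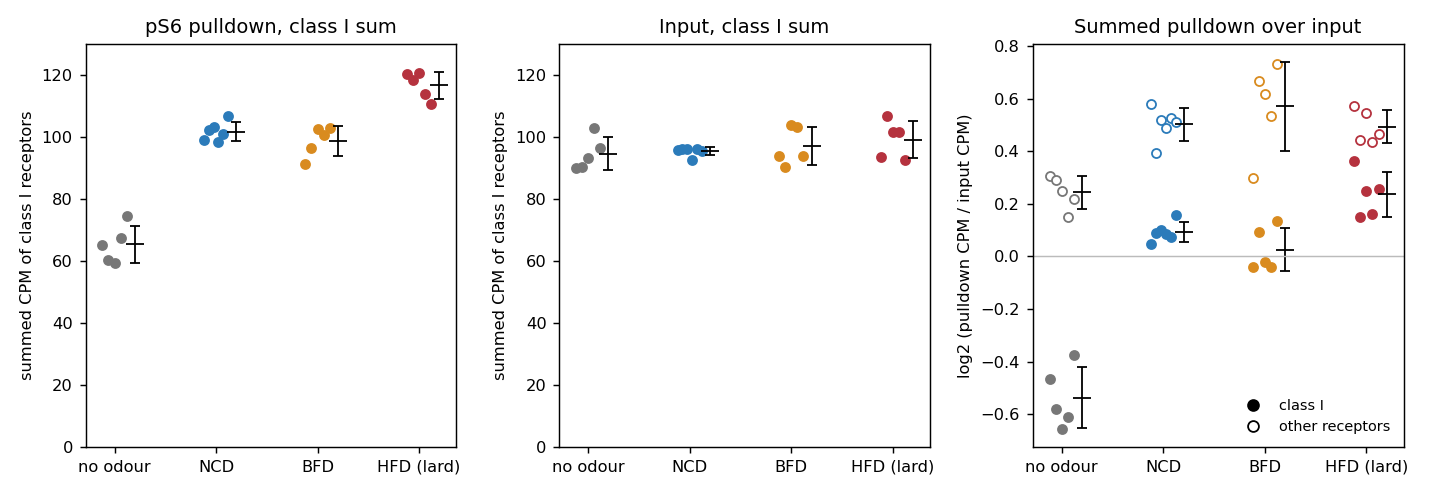
Summed CPM of the 139 class I receptors in each pulldown (left) and input (middle), and log2 of summed pulldown over input for class I (filled) and the other receptors (open, right). Each point is a pool of 4 epithelia, grouped by odour, and the bars give mean and SD (n = 5, or 6 for NCD). Pulldown sums lie between 59.2 and 74.5 CPM without odour and between 91.2 and 120.6 with one, while input sums overlap.

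Measured as a share of all receptor signal, which does not depend on how libraries are scaled, class I took 2.30% ± 0.13 (SD, n = 5) of the pulldown CPM of receptors without odour. It took 2.89% ± 0.14 (SD, n = 6) with NCD, 2.65% ± 0.23 (SD, n = 5) with BFD and 3.19% ± 0.05 (SD, n = 5) with HFD. The NCD and HFD pools were clear of the pools without odour, whereas the lowest BFD pool (2.485%) stood next to the highest pool without odour (2.484%). In the inputs the share was 3.88% ± 0.20 (SD, n = 5) without odour and between 3.65% and 4.02% in the 16 pools with an odour, where the pools without ran from 3.66% to 4.13%.

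The share of ribosomal RNA in a library moved with these groups. It was 23.9% ± 5.97 (SD, n = 5) of the counts in pulldowns without odour and 14.2% ± 3.06 (SD, n = 16) in pulldowns with an odour, and 28.1% ± 4.21 and 14.5% ± 3.47 in the inputs. The pool without odour that had the least ribosomal RNA in its pulldown, replicate 6 (14.6%, inside the range of 10.7% to 21.7% with an odour), had a class I log2 ratio of -0.37. That was the highest of the 5 pools without odour, and the lowest pool with an odour was at -0.04. With the ribosomal RNA share in the fit, the median over the tested members was -0.71 without odour, and its change was 0.60 under NCD, 0.67 under BFD and 0.77 under HFD. The part of the ribosomal RNA share in the class I sums was not tested.

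Markers of the dorsal epithelium, where most class I neurons are found, were set beside these values. Nqo1, an oxidoreductase of dorsal sensory neurons, had a log2 pulldown over input of -0.89 without odour (SE 0.06, adjusted p = 1.1e-11, edgeR quasi-likelihood test with Benjamini-Hochberg adjustment) and rose by 0.44 under BFD odour (SE 0.08, adjusted p = 0.00071). Its log2 changes of 0.14 under NCD and 0.31 under HFD missed the threshold of 0.001 (adjusted p = 0.27 and 0.014). Acsm4, a dorsal acyl-CoA synthetase, had a log2 ratio of -0.07 without odour and a log2 change of 0.33 under HFD (adjusted p = 0.25 and 0.0046), neither past the threshold. The log2 changes of Acsm4 under NCD and BFD were -0.08 and 0.01. None of the 4 ventral genes Ncam2, Nfia, Nfib and Nfix changed past the threshold under any odour, with medians of -0.26, -0.35 and -0.28. The 10 markers of mature sensory neurons had median log2 changes of 0.06, 0.20 and 0.09 under NCD, BFD and HFD, with 0, 2 and 0 higher past the threshold, and their summed pulldown CPM was 16031 to 19591 without odour and 17812 to 24731 with an odour. The part of these shifts in the class I values was not tested.

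Gene by gene, most members had a log2 ratio below 0 when no odour was given (82 of 98), and fewer were called depleted. Among the 98 tested members, 1 was enriched and 18 were depleted at an adjusted p under 0.001, where 19.8% of all tested genes were enriched and 16% were depleted (edgeR quasi-likelihood test, adjusted over 21168 genes). Among the 810 other receptors, 108 were enriched and 76 depleted. The class I count of depleted members was thus near the share of all genes, and its count of enriched members was below it. The median log2 ratio was -0.65 for class I, -0.13 for the other receptors and 0.01 for all genes, and 16 of 98 members lay above 0, against 43.2% of the other receptors and 50.7% of all genes. At an adjusted p under 0.05, 38 members were depleted, where 28.5% of all genes were. Leaving out 1 pool without odour reduced the calls from 19 to 11, 12, 10 or 12 when the pool was replicate 1, 2, 3 or 4, and entering the ribosomal RNA share as a covariate left 9, all depleted. A fit on the pools without odour alone, in which 66 members were tested, left 4, all depleted.

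Of the depleted members the 5 lowest were Olfr566, Olfr592, Olfr678, Olfr658 and Olfr639. Olfr566, second in the inputs per kb, held 0.645, 0.797, 0.551, 0.262 and 1.50 CPM in the 5 pulldowns without odour and 3.70, 3.53, 2.50, 4.06 and 2.52 CPM in their inputs, so that each pulldown lay below its own input. Its log2 ratio was -2.14 (SE 0.27, adjusted p = 2.3e-07). Olfr592 was at -1.94 (adjusted p = 9.3e-06), Olfr678 at -1.79 (0.00012), Olfr658 at -1.67 (0.0005) and Olfr639 at -1.60 (9.7e-05). Olfr658 and Olfr678 rested on fewer than 10 counts in an average pulldown (9.10 and 5.33). The call of Olfr658 was lost without replicate 1, 2, 3 or 4 of the pools without odour (adjusted p up to 0.0043).

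Olfr571 was the single enriched member and one of the most abundant in the pulldowns. Without odour it held 7.78, 7.22, 5.87, 7.01 and 8.88 CPM in the pulldowns and 4.66, 4.43, 5.75, 3.69 and 5.10 CPM in the inputs, with a log2 ratio of 0.64 (SE 0.13, adjusted p = 0.00014). All 5 pulldowns lay above their inputs, replicate 3 by 0.03 on the log2 scale and the others by 0.70 to 0.91. Its adjusted p rose to between 0.001007 and 0.0016 without replicate 1, 2, 4 or 6.

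Olfr613 and Olfr578, next after Olfr566 per kb in the inputs, were depleted less strongly. Olfr613 had a log2 ratio of -0.63 (SE 0.13, adjusted p = 0.00022) and Olfr578 one of -0.76 (SE 0.18, adjusted p = 0.00093). Olfr613 lost its call without replicate 1 or 2 of the pools without odour (adjusted p = 0.0031 and 0.0022). Olfr578 is a borderline call, since it passed in only 6 of the 21 fits that each left out 1 pool (adjusted p up to 0.0089). Olfr672, the most abundant in the inputs per kb, was at -0.26 (adjusted p = 0.2).

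**Figure D2:**
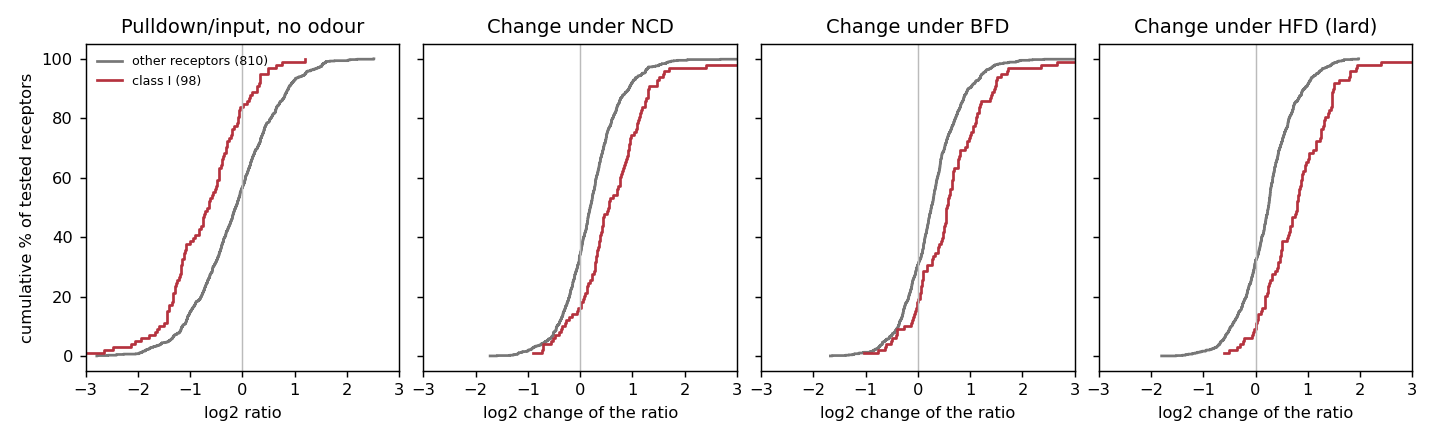
Cumulative percentage of tested class I receptors (98, red) and other receptors (810, grey) against log2 pulldown over input without odour (left) and against the log2 change of that ratio under each odour (other panels). Axes stop at -3 and 3. Over most of its range the class I curve lies to the left of the grey curve without odour (medians -0.65 and -0.13) and to the right of it under NCD, BFD and HFD (medians 0.54, 0.55 and 0.79 against 0.19, 0.26 and 0.24).

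Under odour most members had a log2 change above 0, although few passed the threshold singly. The median log2 change of the 98 members was 0.54 under NCD, 0.55 under BFD and 0.79 under HFD, against 0.19, 0.26 and 0.24 over the other receptors and between -0.01 and 0.00 over all genes. Above 0 lay 82, 79 and 88 of the 98 members under NCD, BFD and HFD. In all genes tested the corresponding shares were 49.4%, 50% and 48.9%, and among the other receptors 65.8%, 69.4% and 67.8%. The 3 comparisons share the 5 pools without odour, so they are not independent of each other. Over all members with any count, filter or not, the mean pulldown CPM was higher than without odour for 105, 98 and 118 of 135, or 77.8%, 72.6% and 87.4%. For the other receptors it was higher for 69.5%, 73.1% and 68.7%, and for all genes 43.3%, 48% and 42.5%. By that count the class I share was not above that of the other receptors under BFD. The ratio in every pool with the odour was above every pool without for 5, 7 and 13 of the 98 members under NCD, BFD and HFD, or 5.1%, 7.14% and 13.3%. For all genes that share was 5.73%, 6.45% and 5.04%, and for the other receptors 7.41%, 7.04% and 8.15%. The class I share was below both under NCD and above both under BFD and HFD, under BFD by less than 1 percentage point.

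At the threshold of 0.001 no member was called under NCD, where 0.359% of all genes were higher, and 2 were called under BFD (2.47% of all genes) and the same 2 under HFD (0.699%). The 2 members were Olfr597 and Olfr598. Among the 810 other receptors 17, 32 and 10 were higher under NCD, BFD and HFD. The class I count under BFD was therefore not above the share of all genes, and that under NCD was 0. No member was lower under any odour, where 0.165%, 1.32% and 0.52% of all genes were. Of the 98 members 31 under NCD had an unadjusted p under 0.05 in the higher direction, as had 13.9% of all genes. At an adjusted p under 0.05, the members higher were 13 under NCD, 15 under BFD and 21 under HFD, against 6.79%, 12% and 7.67% of all genes and 80, 104 and 74 of the 810 other receptors. In DESeq2 with the same design 4, 3 and 4 members passed 0.001. With the inputs entered as scaling factors of the pulldown counts (called pulldown divided by input here), 4, 5 and 7 passed in DESeq2. The study instead divided pulldown by input counts before its fit. How many of all genes DESeq2 called is not given, so these counts have no share to be read against. Both DESeq2 fits called Olfr597, Olfr653 and Olfr691 under NCD, which edgeR placed at adjusted p = 0.0014, 0.0035 and 0.002.

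Olfr597 and Olfr598 are neighbours on the plus strand, at chr7:103316315-103322799 and chr7:103323568-103329888, with Olfr599 next at chr7:103335917-103339564. Their coding sequences, of 948 and 960 bases, were 96.9% identical over 960 aligned positions, so reads can be shared between them in the estimation of counts, whereas Olfr599 was 73.0% identical to Olfr597. In Olfr597 30.9% and in Olfr598 30.3% of the 31-base words occurred in transcripts of other genes, and in Olfr599 0%. The starts of the coding sequences of the 3 receptors are shown to let the likeness be seen, from GENCODE M21 transcripts on GRCm38. Capitals mark bases that differ from Olfr597, which are 3 of 120 in Olfr598, counted from its coding base 13 because its coding sequence begins 12 bases earlier, and 26 of 120 in Olfr599.
Olfr597: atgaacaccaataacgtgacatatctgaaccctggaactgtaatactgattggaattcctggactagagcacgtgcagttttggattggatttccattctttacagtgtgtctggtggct
Olfr598: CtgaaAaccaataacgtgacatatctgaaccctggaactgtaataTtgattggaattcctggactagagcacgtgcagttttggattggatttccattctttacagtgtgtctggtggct
Olfr599: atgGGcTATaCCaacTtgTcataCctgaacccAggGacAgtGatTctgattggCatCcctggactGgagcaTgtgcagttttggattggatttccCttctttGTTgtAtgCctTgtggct

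Olfr597 held 1.16, 0.974, 1.81, 1.69 and 1.06 CPM in the pulldowns without odour. It rose to between 2.22 and 3.55 CPM with NCD (median 2.55), to 2.52, 3.27, 3.6, 2.79 and 2.92 CPM with BFD and to 3.06, 3.92, 4.50, 2.86 and 2.46 CPM with HFD. All 16 pools with an odour lay above all 5 without, in pulldown CPM and in the ratio. The log2 change of its ratio was 1.51 under BFD (adjusted p = 0.00018) and 1.80 under HFD (adjusted p = 4.6e-05), and its value of 1.29 under NCD missed the threshold (adjusted p = 0.0014). Leaving out each pool in turn kept both calls in 21 of 21 fits.

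Olfr598 held 2.41, 3.37, 2.60, 1.84 and 2.12 CPM in the pulldowns without odour. With an odour it held 4.34 to 6.10 CPM under NCD (median 5.32), 3.50, 6.39, 4.54, 5.02 and 6.24 CPM under BFD and 6.09, 6.21, 6.44, 4.85 and 5.16 CPM under HFD. The groups with and without odour again did not overlap, with 3.37 CPM the highest without and 3.50 the lowest with an odour. Its log2 change was 1.13 under BFD (adjusted p = 0.00045) and 1.41 under HFD (adjusted p = 8.9e-05), and 0.93 under NCD (adjusted p = 0.0039). The BFD call was lost in 7 of 21 fits that left out a pool, namely replicate 1, 4 or 6 without odour or replicate 2, 3, 4 or 5 with BFD (adjusted p up to 0.0024). When the share of ribosomal RNA entered the fit, Olfr597 and Olfr598 missed the threshold under BFD (log2 changes 1.57 and 1.02, adjusted p = 0.0052 and 0.019) and kept it under HFD. In fits on the compared groups only, both missed it under BFD (1.53 and 1.15, adjusted p = 0.0033 and 0.0068), and under HFD Olfr597 kept it (1.81, adjusted p = 0.00094) while Olfr598 did not (1.41, adjusted p = 0.0015). With TMM factors from receptors alone Olfr598 missed it under BFD (0.81, adjusted p = 0.0019).

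Because reads of the pair can be split between them, the pair was also summed. Olfr597 plus Olfr598 held 3.8 ± 0.54 CPM (SD, n = 5) in pulldowns without odour, 7.97 ± 0.58 (SD, n = 6) with NCD, 8.16 ± 1.41 (SD, n = 5) with BFD and 9.11 ± 1.46 (SD, n = 5) with HFD. In the inputs the sum was 3.35 ± 0.51, 3.36 ± 0.25, 2.94 ± 0.25 and 2.73 ± 0.27 CPM. The log2 ratio of the summed pair was 0.18 ± 0.25 without odour and 1.25 ± 0.14, 1.46 ± 0.38 and 1.73 ± 0.24 with NCD, BFD and HFD, with every pool with an odour (lowest 0.88) above every pool without (highest 0.51).

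The neighbour Olfr599, named after its values were seen, moved the same way with fewer counts and with no words in common. Its log2 change was 1.46 under NCD, 1.50 under BFD and 1.93 under HFD (adjusted p = 0.013, 0.0069 and 0.0019), each short of the threshold. Its ratio overlapped between the groups, since replicate 3 without odour stood at 0.60 and the 6 NCD pools ran from 0.43 to 1.46. Over the 21 pools the members whose ratio followed that of Olfr597 most closely were Olfr635 (Spearman's rho 0.88, n = 21) and Olfr599 (0.73), and for Olfr598 they were Olfr578 (0.79) and Olfr649 (0.76). The points share the odour groups, and with the group means removed these values were 0.70, 0.43, 0.40 and 0.13.

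**Figure D3:**
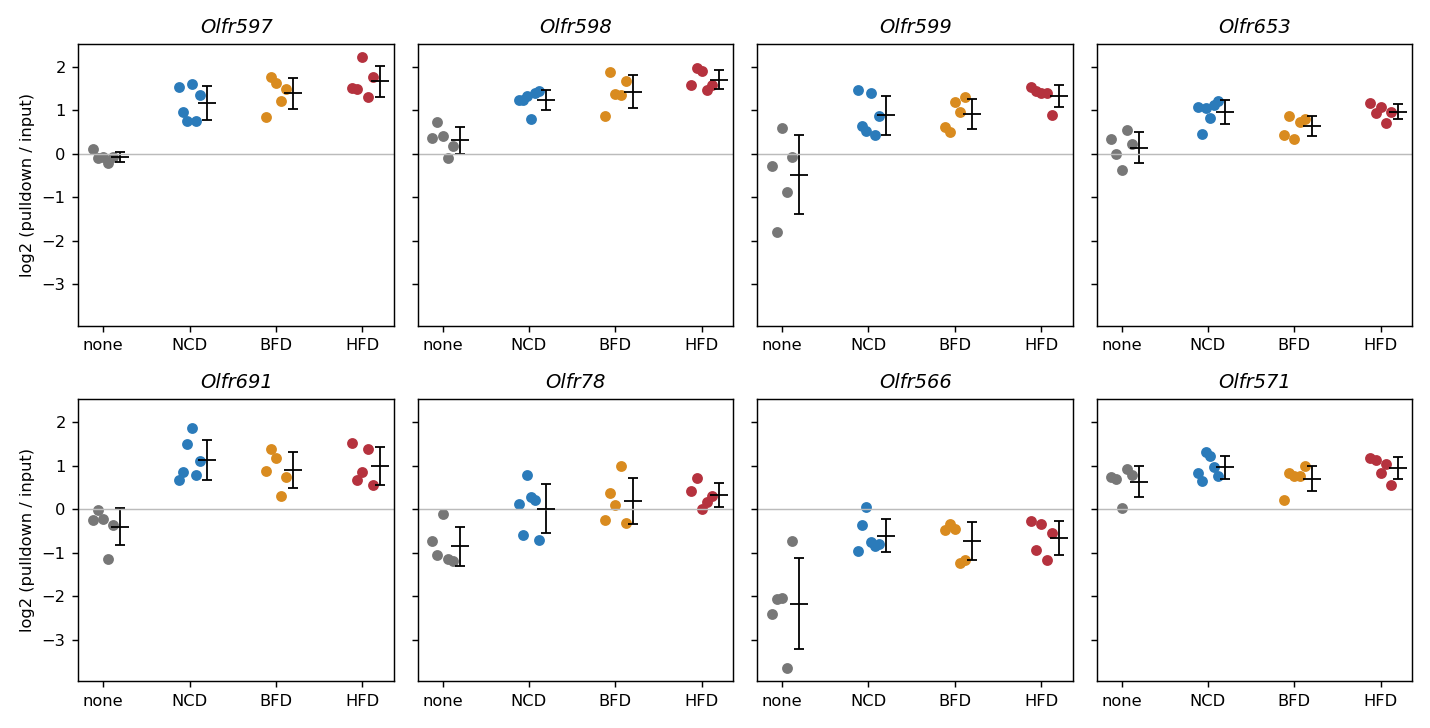
Log2 of pulldown over input in each pool for 8 class I receptors, grouped by no odour, NCD, BFD and HFD odour, with mean and SD (n = 5, or 6 for NCD) beside the points. In Olfr597 and Olfr598 no pool with an odour reaches down to a pool without one, whereas in Olfr571 the groups overlap.

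The rise of the class I sum was spread over many members. The 10 members with the largest rise in mean pulldown CPM made up 45.4% of it under NCD, 45.5% under BFD and 42% under HFD. Olfr653 and Olfr598 gave the largest parts, 11% and 7.61% under NCD, 7.61% and 8.0% under BFD and 8.86% and 6.40% under HFD. Without Olfr597 and Olfr598, the pulldown sum was still 61.5 ± 6.61 CPM (SD, n = 5) without odour and 93.8 ± 3.14, 90.6 ± 4.21 and 107.6 ± 3.22 CPM with NCD, BFD and HFD, and no pool with an odour overlapped with the pools without.

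Olfr653, named after its values were seen, was second to Olfr571 among all members in mean pulldown counts (204 and 243). It held 4.17, 3.32, 3.11, 4.53 and 4.18 CPM in the pulldowns without odour, 6.02 to 9.13 CPM with NCD, 5.33 to 7.39 with BFD and 7.54 to 9.32 with HFD, with no overlap between odour and none. Its log2 ratio changed by 0.83 under NCD, 0.49 under BFD and 0.83 under HFD (adjusted p = 0.0035, 0.048 and 0.0029). In ratio the groups overlapped, since the lowest BFD pool stood at 0.34 and the highest pool without odour at 0.54.

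At an adjusted p under 0.05, 25 members were higher under at least 1 odour, and 9 of these under all 3: Olfr33, Olfr67, Olfr566, Olfr597, Olfr598, Olfr599, Olfr635, Olfr653 and Olfr691. A further 7 passed under HFD alone, 1 under NCD alone and 2 under BFD alone, which does not show that the odours differed. Per odour, 6.79%, 12% and 7.67% of all genes were higher at this cutoff under NCD, BFD and HFD. Shares of all genes for the combined counts are not given, so those counts only describe the members. Depletion and change both rest on the 5 pools without odour, so a low ratio there raises the change by itself. Of the 38 members depleted without odour at 0.05, 4, 4 and 6 were higher under NCD, BFD and HFD. The corresponding shares of all depleted genes are not given. Olfr566, the lowest of the called members, was among these 4, 4 and 6 members. In its pools the log2 ratio averaged -2.18 ± 1.05 (SD, n = 5) with no odour, then -0.61 ± 0.39 (SD, n = 6), -0.73 ± 0.43 (SD, n = 5) and -0.66 ± 0.39 (SD, n = 5) with NCD, BFD and HFD. The changes were 1.51, 1.40 and 1.47 (adjusted p = 0.0071, 0.0069 and 0.0076). Replicate 6 without odour, at -0.73, lay among the pools with an odour.

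Olfr571 and Olfr613, both well counted, had small values that missed the threshold. Olfr571 changed by 0.32, 0.07 and 0.31 under NCD, BFD and HFD (adjusted p = 0.23, 0.82 and 0.26), and Olfr613 by 0.15, 0.10 and 0.25 (adjusted p = 0.64, 0.77 and 0.39). Olfr672 and Olfr578 had changes of 0.84 and 1.00 under HFD (adjusted p = 0.017 and 0.008) and of at most 0.66 under the other odours. Olfr607 could not be compared as a fold, since it had no count in the pulldowns without odour, against a mean of 0.215 CPM under HFD.

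The 5 receptors Olfr78, Olfr558, Olfr544, Olfr545 and Olfr691, which have ligands known from other work, were followed whatever their values. Olfr691 held 0.688, 0.664, 0.630, 0.487 and 0.873 CPM in the pulldowns without odour and 1.22 to 2.45 CPM in all 16 pools with an odour, with no overlap. Its log2 changes were 1.61, 1.38 and 1.47 under NCD, BFD and HFD (adjusted p = 0.002, 0.0031 and 0.0035), all short of the threshold. Its ratio did not overlap between odour and none either, with -0.02 the highest without and 0.30 the lowest with an odour.

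Olfr78, a receptor of short-chain fatty acids that is also expressed outside the nose, held 0.516, 0.310, 0.748, 0.450 and 0.405 CPM in the pulldowns without odour. It held 0.783 to 2.01 CPM with NCD, 1.18 to 2.66 with BFD and 1.57 to 2.06 with HFD, above every pool without odour. Its log2 ratio changed by 0.93, 1.11 and 1.25 (adjusted p = 0.063, 0.02 and 0.014). Part of the pulldown rise was also in the inputs, where it held 0.905 ± 0.147 CPM (SD, n = 5) without odour and 1.31 ± 0.29, 1.38 ± 0.14 and 1.39 ± 0.19 CPM with NCD, BFD and HFD.

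Olfr545 had few counts, 1 to 4 in a pulldown without odour and 8 to 22 with NCD. Its log2 change was 2.41 under NCD, 0.57 under BFD and 0.82 under HFD (adjusted p = 0.013, 0.6 and 0.42). Olfr544 changed by 0.42, 0.54 and 0.70 (adjusted p = 0.46, 0.31 and 0.19) and Olfr558, a butyrate-responsive receptor, by 0.55, 0.28 and 0.78 (adjusted p = 0.25, 0.59 and 0.097). For Olfr544 and Olfr558 the SD between pools of the same odour, up to 0.78 and 0.68, was as large as most of these values.

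Between the odours no member passed the threshold. For HFD over BFD the smallest adjusted p among the 98 members was 0.58, for HFD over NCD 0.79 and for BFD over NCD 0.51 (edgeR quasi-likelihood test). At an unadjusted p under 0.05, 1 member was higher for HFD over BFD, 7 were higher and 1 lower for HFD over NCD, and 2 were higher and 2 lower for BFD over NCD. In all genes those shares were 3.48% higher and 4.52% lower, 2.38% and 2.24%, and 3.69% and 3.55%. In all genes 0% were higher and 0.0378% lower for HFD over BFD at the threshold, 0.00472% and 0.0189% for HFD over NCD, and 0.00945% and 0% for BFD over NCD. The alternatives, DESeq2 included, called no member in these comparisons. The medians of the members were 0.16, 0.15 and -0.01, against values near 0 for HFD over BFD, 0.03 and 0.05 over the other receptors.

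In the inputs, of 93 members tested for any odour against none, 0 passed the threshold (edgeR, 7 higher and 3 lower at an unadjusted p under 0.05, against 21.9% and 23.1% of all genes), where 5.26% of all genes were higher and 6.73% lower. At an adjusted p under 0.05, 4 members were higher, where 17.9% of all genes were. In DESeq2 1 member passed, Olfr632, with a log2 difference of 0.60 (edgeR adjusted p = 0.0032). Without replicate 6 of the pools without odour, Olfr632 also passed in edgeR. Olfr78 differed by 0.59 (adjusted p = 0.0031), and Olfr633 and Olfr653 by 0.49 and 0.24 (adjusted p = 0.011 and 0.05). The median over the 93 members was 0.07 and over the other receptors 0.04.

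Olfr632, chosen after its values were seen, had negative values under all 3 odours. It was depleted without odour, at -1.32 (SE 0.28, adjusted p = 0.00024), and its pulldown stayed at 0.695 ± 0.279 CPM (SD, n = 5) without odour and 0.636 ± 0.252, 0.807 ± 0.476 and 0.666 ± 0.104 CPM with NCD, BFD and HFD. Its input was 1.72 ± 0.57 CPM (SD, n = 5) without odour and 2.89 ± 0.31, 2.53 ± 0.14 and 2.40 ± 0.59 with them. The log2 ratio changed by -0.90, -0.40 and -0.51 (adjusted p = 0.12, 0.52 and 0.42). Its depletion call was lost without replicate 3 or 6 of the pools without odour (adjusted p = 0.0015 and 0.0025).

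Compared with the other receptor clusters of the genome, the class I cluster was first in the order of both the ratio without odour and the change under odour. Both are computed from the same 5 pools without odour, so a low ratio in those pools raises the change by itself, and the orders are not independent of each other. Receptors within 1 Mb of each other were joined into clusters, and 18 clusters had at least 15 tested members. Class I had the lowest median ratio without odour (-0.65), next to -0.62 for a cluster of 76 tested receptors on chromosome 9, so these neighbours were close. It had the highest median change under NCD (0.54, next 0.44), BFD (0.55, next 0.48) and HFD (0.79, next 0.57). The nearest receptors outside the cluster, 45 tested on chromosome 7 from 106675005 to 108894420, had medians of 0.14 without odour and 0.25, 0.31 and 0.26 under NCD, BFD and HFD.

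**Figure D4:**
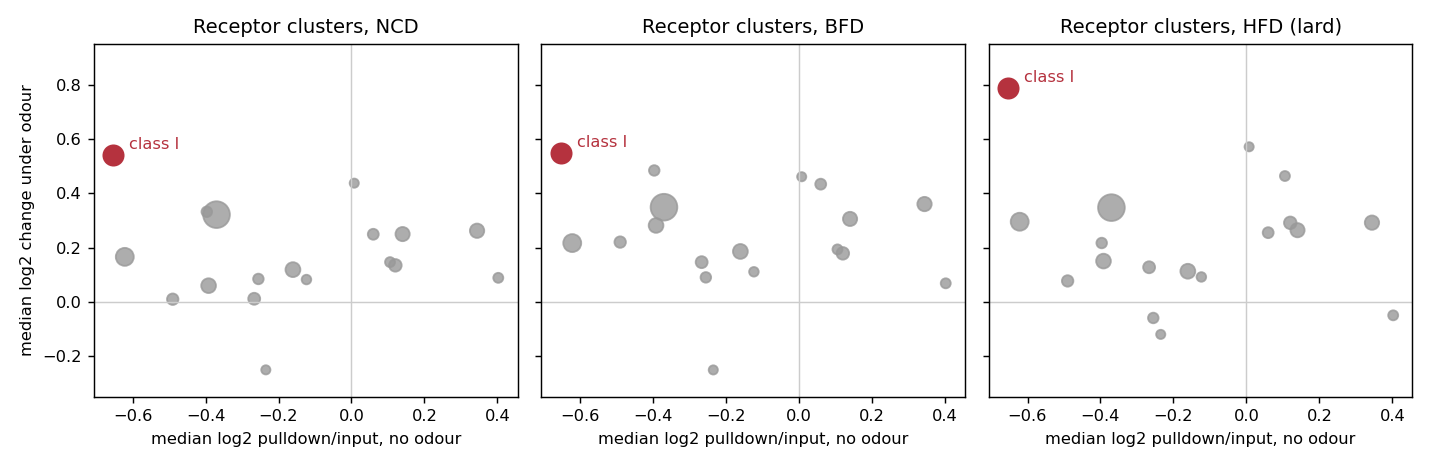
Each circle is 1 of 18 receptor clusters (circle area grows with the number of tested receptors), placed by its median log2 pulldown over input without odour and its median log2 change under NCD, BFD or HFD. The class I cluster (red, 98 tested) is at the upper left in all 3 panels, at -0.65 and 0.54, 0.55 and 0.79.

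Receptors were put into 4 classes by their mean level, cut at the quartiles of the other receptors. Class I was mostly in the lower ones, with 42, 37, 15 and 4 members from the lowest to the highest. In those classes the class I medians without odour were -0.79, -0.50, -0.49 and -0.24, against -0.65, -0.39, 0.01 and 0.23 for the other receptors. The gap to receptors of like level was thus smallest in the 2 lower classes, which held most members. Under HFD the class I medians were 0.51, 0.87, 0.81 and 0.57 against 0.24, 0.26, 0.26 and 0.22. Under BFD they were 0.53, 0.67, 0.54 and 0.29 against 0.15, 0.30, 0.29 and 0.25, close together in the highest class, which held 4 members. Under NCD they were 0.35, 0.71, 0.76 and 0.48 against 0.16, 0.19, 0.19 and 0.21.

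The 58 tested members before the globin genes and the 40 after them had medians of -0.58 and -0.98 without odour, and of 0.60 and 0.43, 0.66 and 0.48, and 0.79 and 0.63 under NCD, BFD and HFD. Neighbouring members were little alike, with a Spearman correlation between a member and the next of 0.05 without odour and 0.07, 0.18 and 0.05 under the odours (97 pairs, across genes, which are not independent replicates). On the plus strand (52 members) and the minus strand (46) the median change was 0.44 and 0.71 under NCD, 0.50 and 0.66 under BFD, and 0.67 and 0.83 under HFD. Members with less than 5% of their 31-base words in other transcripts had a median of -0.50 without odour and those with more had -0.73 (49 each). Under NCD their medians were 0.63 and 0.42, under BFD 0.61 and 0.54, and under HFD 0.79 and 0.79. The 16 other tested genes between the first and last member had medians of -0.91 without odour and of -0.12, -0.22 and -0.20 under NCD, BFD and HFD.

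**Figure D5:**
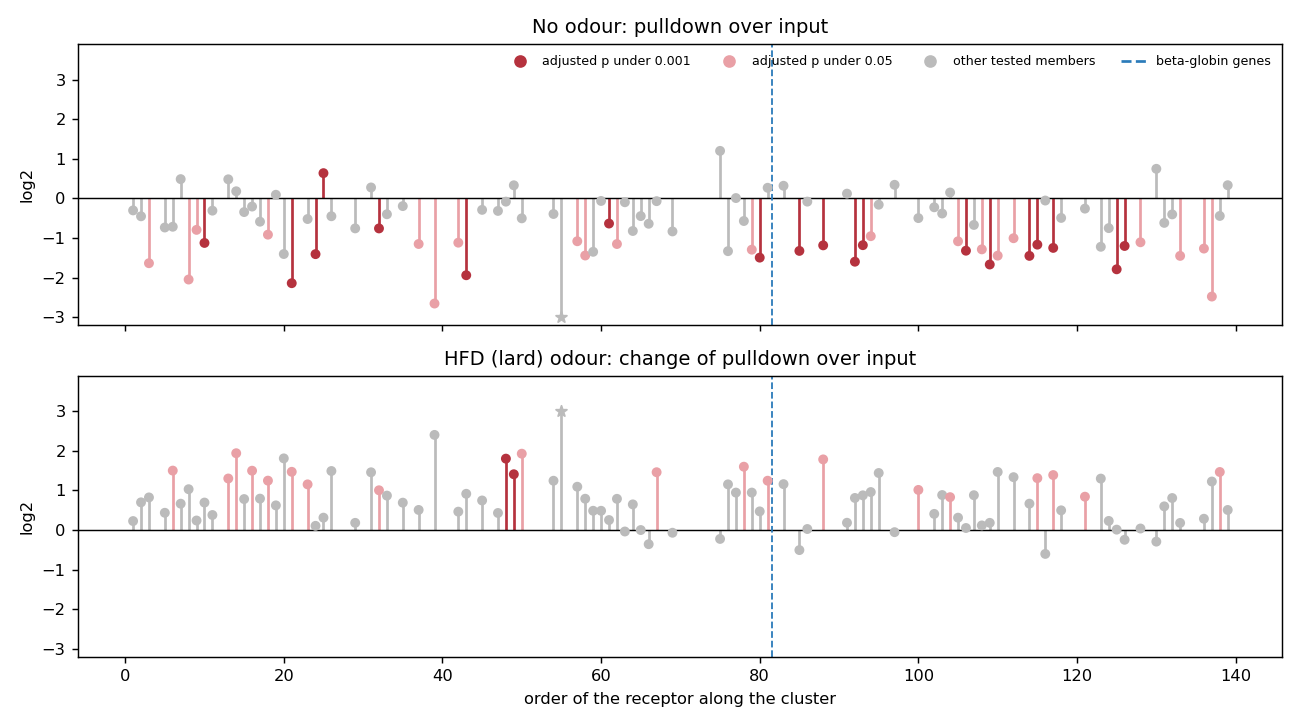
Log2 pulldown over input without odour (top) and its log2 change under HFD odour (bottom) for the 98 tested members, placed by their order among the 139 along the cluster; colour gives the adjusted p and the dashed line the beta-globin genes. Stars mark a value beyond the axis limit of 3 on either side, which is Olfr607, with no count in the pulldowns without odour. Dark points below 0 in the upper panel are spread along the whole cluster, and the 2 dark points in the lower panel are Olfr597 and Olfr598.

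Genes that serve receptor choice and trafficking were set beside the receptors. Of 15 such genes, 10 were enriched and 1 depleted in the pulldown without odour, where 19.8% and 16% of all tested genes were. Their median log2 ratio was 0.33. The 15 include Lhx2 and Ldb1, which bind the enhancers of receptor genes, and Rtp1 and Rtp2, which carry receptors to the surface. Rtp1 and Rtp2 lay below 0 without odour, at -0.21 and -0.33. None of the 15 passed the threshold under NCD, BFD or HFD (medians -0.05, -0.15 and -0.14). Of the 11 genes of odour transduction, such as the G protein Gnal and the channel subunit Cnga2, 8 were enriched without odour. Under NCD, BFD and HFD 0, 2 and 0 were higher (medians 0.04, 0.18 and 0.07), where 0.359%, 2.47% and 0.699% of all genes were. These 11 are the markers of mature sensory neurons given earlier plus Pde1c, so the results for those markers and these genes are not separate. Adcy3 is also among the 15. The class I medians of 0.54, 0.55 and 0.79 lay above those of the 15 and of the 11 genes, as did the medians of the other receptors (0.19, 0.26 and 0.24).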

How the data were processed

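The authors prepared 42 RNA-seq libraries (21 pulldowns and 21 inputs), quantified genes with Salmon on GRCm38 in the nf-core rnaseq pipeline and deposited the estimated counts per gene without normalization. Of these values 30.9% were not exactly whole, with no tolerance (23.9% for class I receptors), and the estimation can divide reads that fit several genes. Counts were rounded. Genes passed edgeR's filterByExpr (minimum count 10, 8 groups), and TMM factors, a term for each pool, pulldown and pulldown-by-odour terms entered edgeR 4.0.16 (robust quasi-likelihood test, run under R 4.3.3 with limma 3.58.1), in which the pulldown and input of a pool are paired because the methods make them from the same tissue (median correlation of their deviations 0.014, n = 21, against -0.004 for other pools). The inputs were fitted alone. The p-values are two-sided, adjusted over all genes (Benjamini-Hochberg), with a threshold of 0.001 as in the study's methods. Whether pools of a group are from separate days or batches is not given, so p-values measure only the spread between these pools.

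CPM are counts scaled by TMM library size. The log2 ratio of a pool is that of log CPM (prior count 2), and that of a sum is taken on summed CPM. Common biological variation was 12.0%. In simulated counts for the 20892 genes tested, changed genes were drawn only from those above a floor on the mean count. The fit recovered 61 of 100 2-fold and 94 of 100 4-fold changes in the pulldown with 1 wrong call. DESeq2 recovered 59 and 94 with 1 wrong call. Members named were those called in an odour comparison, the 5 lowest and up to 5 highest called without odour, the 5 with most input CPM per kb, those called in the inputs and 5 receptors with known ligands. The rule for the members uses position alone, but the cluster was picked for study, and the lists were chosen, with earlier results of these data known, so no count over members is a test. RefSeq promoter windows began within 50 bases of the gene's 5′ end for 15 of 102 members (median distance 3040.5 bases) and were not used. Alternatives were DESeq2 1.42.0 with the same design, or with inputs as scaling factors of the pulldown counts (pulldown divided by input). Further ones were other scalings, filters, pool or replicate terms, a ribosomal RNA covariate, a threshold of 0.05 and each pool left out in turn. Of the members named, Olfr599, Olfr653, Olfr632, Olfr633, Olfr635, Olfr649, Olfr607, Olfr33 and Olfr67 were chosen after their values were seen.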

Additional observations from a re-analysis of the deposited data

Results flagged for a closer look

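In 6 cases a value lay far from the rest of their group by Dixon's test (6 of 96 groups examined, where chance gives about 1 in 20). The class I input sum of NCD replicate 4 was 92.7 CPM, against a median of 96.1 in the other NCD pools. The log2 ratio of Olfr598 was 0.79 in NCD replicate 4 (median of the others 1.33), that of Olfr571 was 0.030 in replicate 3 without odour (0.76), and that of Olfr672 was 0.20 in replicate 1 without odour (-0.38). Olfr545 stood at 2.40 in NCD replicate 6 (0.40) and Olfr599 at 0.90 in HFD replicate 6 (1.43).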

How the results depend on the processing

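The median class I value stayed below that of the other receptors without odour and above it under each odour in all of the alternatives run, by -0.65 to -0.40 without odour (30 alternatives) and by 0.31 to 0.56, 0.26 to 0.39 and 0.45 to 0.62 under NCD, BFD and HFD (31 each). Its own size moved with scaling: TMM on receptors alone gave medians of 0.31, 0.24 and 0.50 under the odours, and a minimum count of 30 gave 0.76 under NCD. Leaving out 1 pool gave medians of -0.77 to -0.56 without odour, 0.50 to 0.65 under NCD, 0.52 to 0.64 under BFD and 0.70 to 0.83 under HFD.

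Single calls depend on the test. Without odour 39 members passed an adjusted p of 0.05, 4 passed in a fit on the compared groups only and 9 with a ribosomal RNA covariate, and leaving out 1 pool gave 10 to 18. Under NCD 13 passed 0.05, and 4 passed in DESeq2 either way. Under BFD 15 passed 0.05, 5 in DESeq2 on pulldown divided by input (for the medians an alternative chosen after seeing the data), 1 with TMM on receptors alone, and 0 in a fit on the compared groups only or with the ribosomal RNA covariate. Under HFD 21 passed 0.05, 4 and 7 in DESeq2, and 1 in the fit on the compared groups only. For the inputs 4 passed 0.05 and 1 in DESeq2. Without 1 pool, 0 to 1 member passed under NCD, 1 to 2 under BFD, 2 to 3 under HFD, 0 to 1 in the inputs and 0 between odours. Fits on fewer groups use fewer pools; for the others the cause was not tested.

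The replicate numbers do not pair pools across odours (median correlation 0.020, lowest -0.21, 1 of 21 pools most like its own number). A replicate block on them left 16 calls without odour, 2 under BFD and 2 under HFD, and dropping the pool term left 18, 2 and 3. In simulated counts 61 of 100 genes changed 2-fold were recovered for HFD over none. Those changed genes were drawn only from genes above a floor on the mean count. The recovery at the counts of class I receptors (median 17.9 in a pulldown) was not tested.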
